A study of Caenorhabditis elegans with 15 samples.

Results

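Gene expression in Caenorhabditis elegans that overexpress active ACP7 from the intestine was compared with that of wild-type animals. All genes of the deposited count table that passed a filter on low counts in these 10 libraries were described, which were 15212 of 46929 genes, and 10 of the 15 libraries of the series entered the comparison. The wild-type group was the laboratory strain N2. The ACP7 OE group was the strain ABR275 with a transgene in which ges-1p, the promoter of a gut esterase gene, drives the coding sequence of F21A3.11. Behind it stand SL2WormScarlet, a red fluorescent reporter separated by trans-splicing, and the 3'UTR of unc-54, a muscle myosin gene. Each group held 5 libraries of polyadenylated RNA from whole worms, about 1000 worms per library. The labels name 1 strain for the transgene, so its effect and any other difference between ABR275 and N2 cannot be told apart, and neither the age of the worms nor the site or copy number of the transgene is given in the sources used here. Nothing says that the 5 libraries of a group came from separate cultures, and p-values measure only the spread between these samples. No transgene without phosphatase activity entered the main comparison.

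F21A3.11 encodes the worm counterpart of the mammalian acid phosphatase 7, a predicted metal-dependent phosphatase that removes phosphate groups at acid pH. The intestine of C. elegans digests bacteria, stores fat, makes yolk for the oocytes and secretes lectins, lysozymes and proteases into its lumen and into the body cavity, so that a protein made there can reach other tissues. Basement membranes, sheets of laminin and type IV collagen, separate the intestine, muscle and gonad from that cavity. Hermaphrodites make sperm in a single period before they switch to oocytes, and developing sperm carries abundant transcripts of the major sperm protein genes.

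The libraries held 39050495 to 49452773 counts in wild type and 39180648 to 58077047 in ACP7 OE, a difference within the spread (exact permutation test, two-sided p = 0.317). The number of genes counted at least once was 17612 to 18318 in wild-type libraries and 17901 to 18610 in ACP7 OE libraries (exact p = 0.611). At a minimum of 10 counts, ACP7 OE libraries held on average 417.8 more genes than wild-type libraries (exact permutation test, p = 0.0397). The first principal component, with 46.95% of the variance, placed wild type between -38.89 and -29.84 and ACP7 OE between 23.66 and 38.05. On the second, with 10.32%, wild-type library 5 stood apart at -42.98, while the other wild-type libraries lay between 10.8 and 13.32. That library had the lowest wild-type medians of the sperm, body wall muscle, pharynx, neuron, hypodermis, cuticle collagen and intestine lists, and list counts that moved by over 1.5 times without it are given with and without it.

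Most rises in ACP7 OE were of weakly expressed genes, and most falls were of better expressed genes. Of 15212 genes, 1182 (7.77%) changed, 673 (4.42%) of them higher and 509 (3.35%) lower in ACP7 OE (quasi-likelihood test of edgeR, adjusted p under 0.05 by Benjamini-Hochberg). At least 2-fold changes were reached by 462 higher genes (3.04%) and 33 lower genes (0.217%). In 689 genes (4.53%) every ACP7 OE library lay above every wild-type library in counts per 1000000 counts (CPM), and in 365 (2.4%) below. The median log2 fold change was 1.25 over the higher genes and -0.385 over the lower ones, and -0.004 over all genes tested. Among the 2999 genes averaging 1 to 4 CPM, 272 rose and 41 fell, at median log2 fold changes of 1.33 and -0.917. Among the 5076 genes above 32 CPM, 83 rose and 237 fell, at medians of 0.244 and -0.3. These medians are over genes past the threshold, which weakly counted genes reach only with larger changes. They therefore do not show how the size of changes goes with level. Without wild-type library 5 the numbers became 1076 higher and 1238 lower, and leaving out any other single library gave 518 to 682 higher and 257 to 582 lower. The plot of fold change against level shows where the rises and falls lie.

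**Figure D1:**
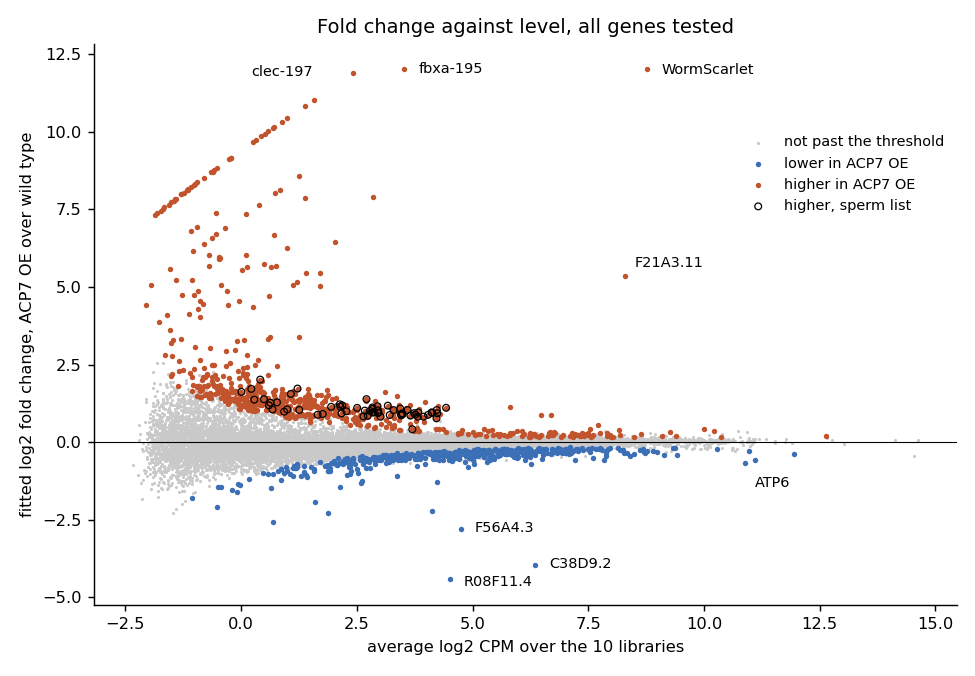
Fitted log2 fold change of ACP7 OE over wild type (vertical) against average log2 CPM over the 10 libraries (horizontal) for the 15212 genes tested. Genes past the threshold are coloured, the rising members of the sperm list are ringed, values above 12 are drawn at 12 (WormScarlet and fbxa-195), and the straight band at the upper left holds genes with 0 counts in wild type, whose fitted values depend on the prior count. The 673 higher genes lie mostly at low levels and the 509 lower genes mostly at higher levels.

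The transgene was read in every ACP7 OE library. F21A3.11 (chromosome V, 15530783 to 15533212, minus strand, WBcel235) stood at 16.2, 14.1, 15.5, 13 and 16.7 CPM in wild-type libraries 1 to 5 and at 579, 603, 596, 649 and 641 CPM in ACP7 OE libraries 1 to 5. The groups did not overlap, and the mean rose 40.6-fold, from 15.1 ± 1.53 to 614 ± 30 CPM (SD, n = 5 each; log2 fold change 5.34, SE 0.07, edgeR adjusted p = 4e-23). Its counts hold the reads of the endogenous gene and of the transgene. WormScarlet had 0 counts in wild type and 803 to 970 CPM in ACP7 OE. ges-1, the source of the promoter, had 44 ± 3 CPM in N2 worms and 44.5 ± 5.33 CPM in ACP7 OE (adjusted p = 0.94), and unc-54, the source of the 3 prime end, had 1183 ± 131 and 1062 ± 224 CPM (adjusted p = 0.55). Both overlapped between the groups. fbxa-195 (chromosome V, 1434339 to 1435804, minus strand), a neighbour of ges-1 annotated as an F-box pseudogene, had 0 counts in wild type and 20.4 to 26.4 CPM in ACP7 OE. Whether its exons lie within the promoter fragment of the construct was not tested.

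A set of genes was at or near 0 in wild type and read in every ACP7 OE library. Chosen among the higher genes by this level, and so given as a description, 60 genes had 0 to 3 counts over the 5 wild-type libraries, 42 of them 0 counts, and all 60 were counted in all 5 ACP7 OE libraries. Apart from WormScarlet, their mean levels in ACP7 OE ran from 0.358 to 22.9 CPM, with a median of 1.13 CPM over all 60. Their sum without WormScarlet was 155, 88.9, 126, 118 and 120 CPM in ACP7 OE libraries 1 to 5, and no more than 0.228 CPM in any wild-type library. These sums include fbxa-195, at 20.4 to 26.4 CPM in ACP7 OE, whose place in the construct was not tested. By name 15 of the 60 were C-type lectin genes, and 4 were fipr genes of small peptides related to fungus-induced ones. Another 3 were srlf genes, 2 were astacin metalloprotease genes (nas), and 2 were scl genes of secreted cysteine-rich proteins. A sequence name only was carried by 31, and WormScarlet, fbxa-195 and 1 hpo gene made up the rest. No gene had the opposite pattern, since 0 lower genes had 0 to 3 counts over the ACP7 OE libraries (edgeR; 3224 genes in all had an unadjusted p under 0.05).

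C-type lectins, proteins with sugar-binding-like domains that are often secreted by the gut and regulated during infection, made up the largest named family in this set. Of 138 tested lectin genes (264 are in the table), 39 rose and 6 fell (10 without wild-type library 5), with a median log2 fold change of 0.23 over those tested. The shares were 28.3% and 4.35%, against 4.42% and 3.35% of all genes tested. Of the 39, 15 had 0 to 3 counts in wild type, 17 others averaged under 1 CPM there, and 7 averaged at least 1 CPM and rose by log2 fold changes of 0.3 to 1.24. Since genes at 0 in wild type passed the filter only through their ACP7 OE level, these counts describe the tested members and are not a test of the family. clec-197 (chromosome IV, 17345553 to 17346699) had 0 counts in all 5 wild-type libraries and 14, 6.82, 10.7, 12 and 8.85 CPM in ACP7 OE libraries 1 to 5, at least 765-fold higher. clec-219 went from 0 counts to 4.35 to 8.66 CPM, at least 425-fold higher, and clec-94 from 0 counts to 2.77 to 6.08 CPM, at least 365-fold higher. clec-207 and clec-208, which are neighbours on chromosome V, had ratios of 347 (exact 95% interval 95.8 to 2870) and 505 (139 to 4170). The bounds are taken against 3 counts over the wild-type group. They and the intervals cover counting error only, and mates that were counted separately make the bounds too high and the intervals too narrow. In all 5 lectin genes no ACP7 OE library overlapped the wild-type range. For all but clec-207 this was a condition of naming by highest fold change. At the other end of the level range, clec-63, one of the best expressed lectin genes, had 828.5 to 1157 CPM in N2 worms and 1219 to 1520 CPM in ACP7 OE (log2 fold change 0.36, SE 0.08, adjusted p = 0.016, or 0.062 without ACP7 OE library 1).

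Some genes of secreted proteases and of insulin-like peptides also rose from near 0. Of 76 tested extracellular proteases and their inhibitors 10 rose (13.2%) and 5 fell (6.58%), against 4.42% and 3.35% of all genes tested. With a single library left out 1 to 8 fell, 8 of these without wild-type library 5. try-8, which encodes a trypsin-like protease, rose from 0.143 ± 0.056 to 6.21 ± 2.1 CPM (SD; log2 fold change 5.43, SE 0.33, adjusted p = 1.8e-10), and it overlaps try-11 on the opposite strand. try-13, of the same family and nearby on chromosome V, rose from 0.115 ± 0.159 to 4.35 ± 1.12 CPM (adjusted p = 0.00011). nas-24, an astacin metalloprotease gene, had 0 counts in wild type and 1.8 to 4.3 CPM in ACP7 OE, a rise of at least 225-fold. The groups did not overlap in any of these protease genes, which for try-8 was a condition of naming by highest fold change. ins-31, an insulin-like peptide gene, had 1 wild-type library above 0, at 0.101 CPM, and stood at 7.14, 3.65, 5.27, 4.63 and 4.42 CPM in ACP7 OE libraries 1 to 5 (adjusted p = 4.6e-10). Its neighbour ins-19 rose from 2.56 ± 1.1 to 5.41 ± 0.277 CPM (adjusted p = 0.012, or 0.31 in a fit of all 15 libraries of the series). Of 21 insulin-like genes tested these 2 rose (9.52%) and none fell. As with the lectins, genes near 0 in wild type passed the filter only through their ACP7 OE level. The counts of proteases and of insulin-like genes therefore describe the tested members and are not a test. The sequence-named F59B2.12 reached 8.91 to 16.7 CPM from at most 0.198 CPM (adjusted p = 3e-10), and tag-329, which is on the cysteine cathepsin list, reached 2.14 to 4.2 CPM from at most 0.0991 CPM (adjusted p = 5.7e-09).

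Several of these genes lie side by side. Of all 673 higher genes, 30% had a higher gene as a direct neighbour among those tested, against 7.31% of the other genes. Untested genes in between were skipped, and genes at 0 in wild type were tested only through their ACP7 OE level. These shares are therefore a description and not a test. There were 22 runs of at least 3 higher neighbours, many of them with sperm genes, and 4 runs of lower ones. On chromosome II the neighbours K12H6.4, K12H6.9, K12H6.5 and K12H6.8 (2823707 to 2828605) rose together, as did C16C8.19, C16C8.7, C16C8.9 and Y49F6B.20 (3458487 to 3470649). K12H6.4 and C16C8.9 had 0 counts in wild type and means of 3.85 ± 0.705 and 2.24 ± 0.338 CPM in ACP7 OE. On chromosome I the run was clec-94, clec-95 and clec-96, and on chromosome II clec-136, clec-137 and clec-138. Many neighbours are copies of 1 another, and reads shared between copies may have been split or dropped in the counting.

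**Figure D2:**
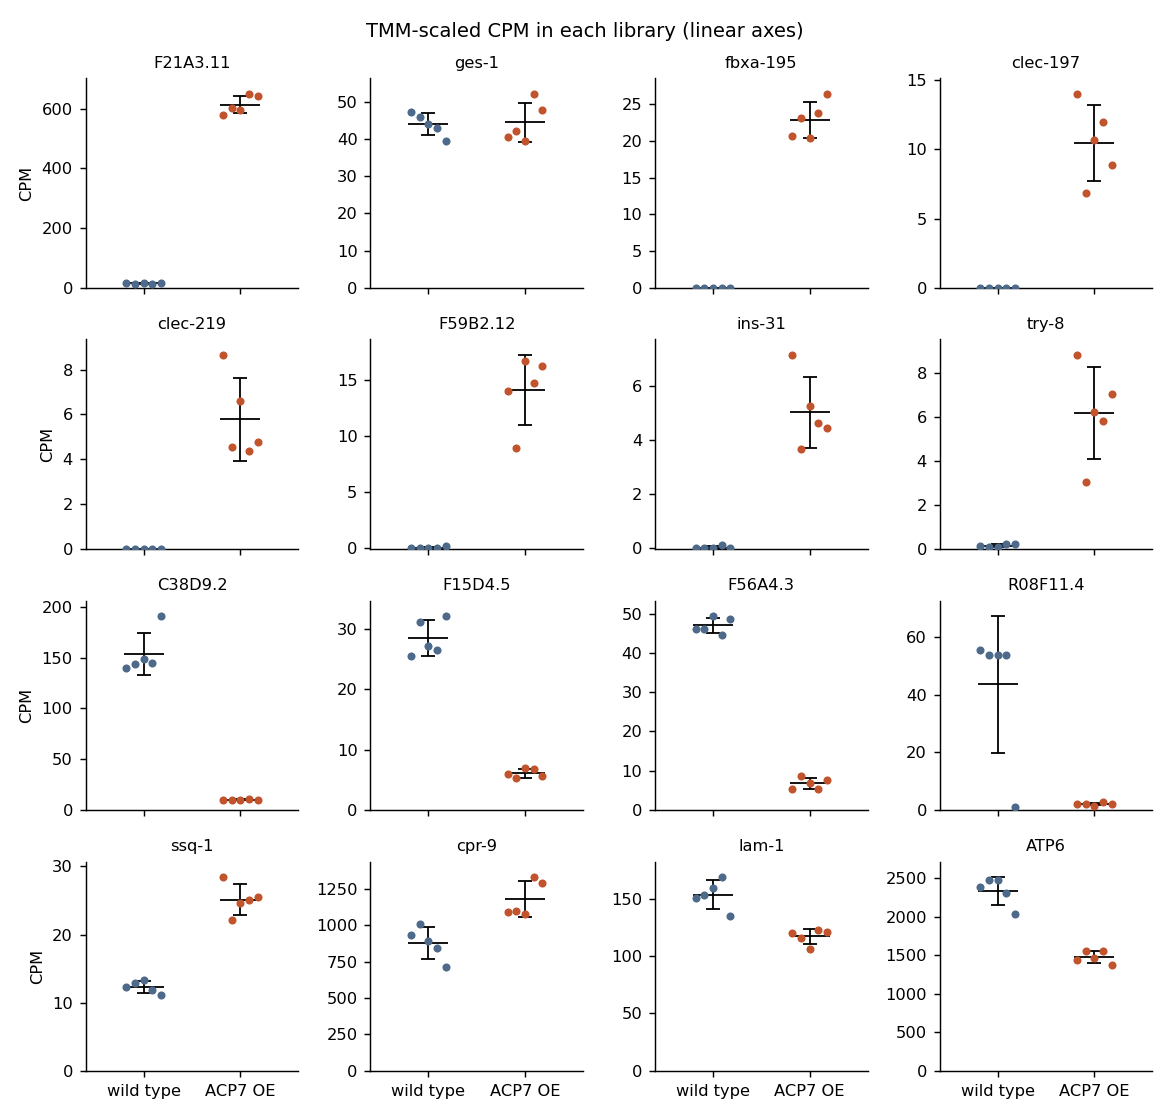
TMM-scaled CPM (vertical, linear) of 16 genes in the 5 wild-type and 5 ACP7 OE libraries (points), with mean and SD (bars). F21A3.11, fbxa-195, clec-197, clec-219, F59B2.12, ins-31 and try-8 are at or near 0 in wild type or far below ACP7 OE, C38D9.2, F15D4.5 and F56A4.3 show the reverse, ges-1 overlaps, and in R08F11.4 wild-type library 5 lies at 1.09 CPM, below the ACP7 OE libraries.

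Sperm genes rose together. Of 87 tested members of the sperm list, 60 rose (69%), 0 fell and 27 did not pass, and the median log2 fold change was 0.95. Over all genes tested 4.42% rose and 3.35% fell. The summed level of all 107 listed genes was 546.1, 523.2, 575.8, 553.4 and 474.7 CPM in wild-type libraries 1 to 5 and 1043, 739.4, 845.3, 848.6 and 831.4 CPM in ACP7 OE libraries 1 to 5, so every ACP7 OE library was above every wild-type library. The count of 60 became 53 to 63 when any single library was left out, 63 of these without wild-type library 5. It became 5 in a fit of all 15 libraries of the series, which share the filter, the scaling and the estimate of spread. In whole worms, more sperm and more RNA per sperm cannot be told apart, nor can other tissues' cell number and RNA content in the results that follow.

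By class, the major sperm protein genes (msp), whose product forms the sperm cytoskeleton and signals oocyte maturation, rose in 28 of 29 tested members. That is 96.6% of them, against 4.42% of all genes tested. The 6 tested ssq and sss genes, small families of sperm-specific proteins, all rose. Of 10 nspd genes, which encode small nematode-specific peptides, 8 rose (80%). Of 26 spe and fer genes, known from mutants with defective sperm, 8 rose (30.8%). This became 4 with wild-type library 1 left out and 5 with ACP7 OE library 1 left out. In the fit of 15 libraries 1 nspd gene, 3 spe and fer genes and no msp, ssq or sss gene passed. ssq-1 (chromosome IV, 9852550 to 9853609) stood at 12.3, 12.8, 13.3, 11.8 and 11.1 CPM in N2 worms and 28.4, 22.1, 24.6, 25 and 25.5 CPM in ACP7 OE (log2 fold change 1.03, SE 0.09, adjusted p = 9.3e-08, or 0.17 in the fit of 15 libraries). spe-18, needed for the assembly of the organelles that package sperm proteins, rose from 3.59 ± 0.437 to 9.37 ± 1.09 CPM (SD; log2 fold change 1.38, SE 0.14, adjusted p = 8.9e-07, or 0.014 in the fit of 15 libraries). msp-57 rose from 9.61 ± 1.73 to 18.7 ± 2.29 CPM (adjusted p = 2.4e-05, or 0.27 in that fit). None of the 3 overlapped between the groups. msp genes are near-identical copies, so the level of a single member is uncertain.

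Among the genes named for other reasons than the sperm list, 3 are known from spermatogenesis. spch-3, a sperm chromatin protein gene, rose from 5.97 ± 0.348 to 12.9 ± 2.6 CPM (adjusted p = 8.6e-06). alg-3 and alg-4, Argonaute genes that act in the male germline, rose by log2 fold changes of 0.55 (SE 0.14, adjusted p = 0.016, or 0.053 with wild-type library 4 left out) and 0.95 (SE 0.21, adjusted p = 0.0056). In the fit of 15 libraries spch-3, alg-3 and alg-4 did not pass (adjusted p = 0.24, 0.21 and 0.36). alg-3 and alg-4 are on a list of small RNA genes, of which 4 rose and 1 fell among 44 tested. The shares were 9.09% and 2.27%, against 4.42% and 3.35% of all genes tested. Without wild-type library 5, 12 rose, and without wild-type library 4, 2 rose. Of the other members that passed, wago-4, a germline Argonaute of small RNA inheritance, rose from 143 ± 4.65 to 168 ± 10.3 CPM (adjusted p = 0.0056). alg-1, the microRNA Argonaute of the soma, fell from 87.3 ± 4.17 to 69.3 ± 7.23 CPM (adjusted p = 0.0021).

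Markers of males were low in both groups. Of 23 listed male genes, 10 were tested and 0 passed (edgeR), 4 had 0 counts in all wild-type libraries and 1 in all ACP7 OE libraries. Their summed level was 14.57 to 16.51 CPM in N2 worms and 14.95 to 17.31 CPM in ACP7 OE, which overlap. Without col-34, the highest of them, the sum was 7.75 to 9.81 CPM and 9.82 to 10.8 CPM, which do not overlap. That gene was left out after its values were seen. Genes of male sensory neurons had few reads, and most had more of them in ACP7 OE. cwp-1 had 0 counts over the wild-type libraries and 36 over the ACP7 OE libraries, pkd-2 had 8 and 49, and lov-1 had 1 and 17. In contrast, cil-7 had 39 and 9, and klp-6 had 73 and 53. Of these 5 genes klp-6 was tested, the others lay below the filter, and all were named after their values were seen. In the whole male list the mean level was lower in ACP7 OE only in cil-7, klp-6, col-34 and tba-9. It was 0 in both groups in srj-54 and higher in ACP7 OE in the rest. The part of male cells in the rise of the sperm genes and of the genes near 0 in wild type was not tested.

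Oocyte and germline genes were nearly level. Of 18 eggshell genes 0 passed (edgeR; median log2 fold change 0.11), and of 45 P-granule genes 1 rose (median 0.08). That is 2.22% of the P-granule genes, against 4.42% of all genes tested. Without wild-type library 5, 11 eggshell and 12 P-granule genes were higher, and the P-granule call was lost without any of 6 other libraries.

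Digestive enzymes of the gut changed in both directions, and the well expressed ones by small amounts. Of 11 tested cysteine cathepsins 5 rose (45.5%), among them tag-329 from near 0, and 1 fell (9.09%). Over all genes tested 4.42% rose and 3.35% fell. In the fit of 15 libraries, or when any of wild-type libraries 3 and 4 or ACP7 OE libraries 4 and 5 was left out, 3 rose. Leaving out wild-type library 5 gave 3 that fell. cpr-9, a cathepsin B-like gene, stood at 936, 1007, 891, 844 and 713 CPM in N2 worms and at 1093, 1100, 1076, 1330 and 1291 CPM in ACP7 OE, without overlap (log2 fold change 0.42, SE 0.08, adjusted p = 0.0046). cpr-4 rose from 250 ± 36.2 to 328 ± 21.1 CPM (SD; log2 fold change 0.39, SE 0.08, adjusted p = 0.0055). cpr-5, of the same family, fell from 301 ± 12.2 to 263 ± 16.8 CPM (adjusted p = 0.023, or 0.091 at most with a library left out and 0.52 in the fit of 15 libraries). Of 12 aspartyl proteases 2 rose and 2 fell, among them asp-13 (log2 fold change 0.26, SE 0.06, adjusted p = 0.0061) and asp-8 (log2 fold change -0.51, SE 0.1, adjusted p = 0.0022, or 0.19 in the fit of 15 libraries). Each direction held 16.7% of the 12 aspartyl proteases, and without any of 7 libraries 1 of the 2 falls was lost.

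Lysozymes, enzymes that cut bacterial cell walls, gave 3 higher and 0 lower of 30 tested genes on the lysozyme and saposin list. The higher ones are 10%, against 4.42% of all genes tested. lys-4 stood at 70.4, 73.6, 70.4, 66.4 and 35.9 CPM in N2 worms and at 108, 107, 114, 128 and 121 CPM in ACP7 OE (log2 fold change 0.87, SE 0.17, adjusted p = 0.0093). Its groups did not overlap, and wild-type library 5 was the lowest. ilys-5, an invertebrate-type lysozyme gene, rose from 545 ± 64.3 to 687 ± 53.5 CPM (SD; log2 fold change 0.33, SE 0.07, adjusted p = 0.0069, or 0.073 in the fit of 15 libraries). Of 6 vitellogenin genes, which encode yolk proteins, 1 rose (16.7%), against 4.42% of all genes tested. This was vit-3, from 5900 ± 344 to 6807 ± 329 CPM (SD; log2 fold change 0.21, SE 0.05, adjusted p = 0.014, or 0.057 at most with a library left out and 0.14 in the fit of 15 libraries).

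Among enzymes of metabolism, fat-7 and fat-5, which encode desaturases that make monounsaturated fatty acids, rose from 13.3 ± 3.67 to 25.1 ± 1.92 CPM (adjusted p = 0.0005) and from 59.1 ± 6.23 to 75.5 ± 5.85 CPM (adjusted p = 0.0027). In the fit of 15 libraries neither passed (adjusted p = 0.12 and 0.57). They are 2 of the 4 higher (12.1%) and 3 lower (9.09%) genes among 33 of lipid synthesis, of which 2, both lower, passed in that fit. Over all genes tested 4.42% rose and 3.35% fell. ugt-64, which encodes an enzyme that attaches sugars to small molecules, was at 33.6 to 37.4 CPM in N2 worms and 71.3 to 78.9 CPM in ACP7 OE (log2 fold change 1.12, SE 0.06, adjusted p = 1.3e-11). Of 58 tested members of its family 2 rose (3.45%) and 6 fell (10.3%). Leaving out wild-type library 5 gave 10 lower, and leaving out ACP7 OE library 3 gave 1 higher and 2 lower. Of 57 cytochrome P450 genes 0 rose and 5 fell, among them cyp-33C8 from 43.8 ± 3.09 to 31.5 ± 2.88 CPM (adjusted p = 0.00026, or 0.38 in the fit of 15 libraries). The 5 are 8.77% of the P450 genes tested. With 1 library left out, 8 P450 genes fell (wild-type library 5), 3 fell (ACP7 OE library 3) or 3 rose (ACP7 OE library 1). cth-1, which encodes a cystathionine gamma-lyase of sulfur amino acid breakdown, fell from 108 ± 7.91 to 73.4 ± 4.67 CPM (SD; log2 fold change -0.55, SE 0.06, adjusted p = 2.1e-06, or 0.16 in the fit of 15 libraries).

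Of the acid phosphatases other than F21A3.11, 1 of 17 tested passed (5.88%), against 7.77% of all genes tested. Leaving out wild-type library 5 gave 4 and leaving out ACP7 OE library 1 gave 3, all of them lower. pho-11 stood at 176, 184, 181, 164 and 180 CPM in N2 worms and 111, 118, 105, 138 and 118 CPM in ACP7 OE, without overlap (log2 fold change -0.58, SE 0.06, adjusted p = 1.3e-06). It overlaps C05C10.3 on the opposite strand. The median log2 fold change over the 17 was -0.21, and 14 of them were below 0.

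Heat shock genes rose in part, while few genes of the secretory pathway changed. Of 12 tested heat shock genes 3 rose (25%), against 4.42% of all genes tested. They were hsp-16.2, hsp-16.41 (adjusted p = 0.015, or 0.058 in the fit of 15 libraries) and hsp-70. hsp-16.2, a small heat shock protein gene, was at 0.505 to 1.34 CPM in N2 worms and 1.91 to 3.71 CPM in ACP7 OE (log2 fold change 1.48, SE 0.29, adjusted p = 0.0018). Without wild-type library 5, 6 heat shock genes rose. Of 27 genes of the endoplasmic reticulum stress response, 43 of the secretory pathway, and 35 of the proton pump and lysosome, 1 each fell and 0 rose. The falls are 3.7%, 2.33% and 2.86%, near the 3.35% of all genes tested. With wild-type library 5 left out, 4, 2 and 6 genes of these lists fell. The falls of hsp-3, of the stress response, and vha-5, of the proton pump, were each lost without any of 8 libraries, and that of sec-16A.2, of the secretory pathway, without any of 2. Of 34 proteasome genes 0 passed (edgeR), but 7 were higher without wild-type library 5. Of 78 ribosomal protein genes 1 fell (1.28%, against 3.35% of all genes tested). That call was lost without any of 8 libraries, and 2 fell without wild-type library 5.

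**Figure D3:**
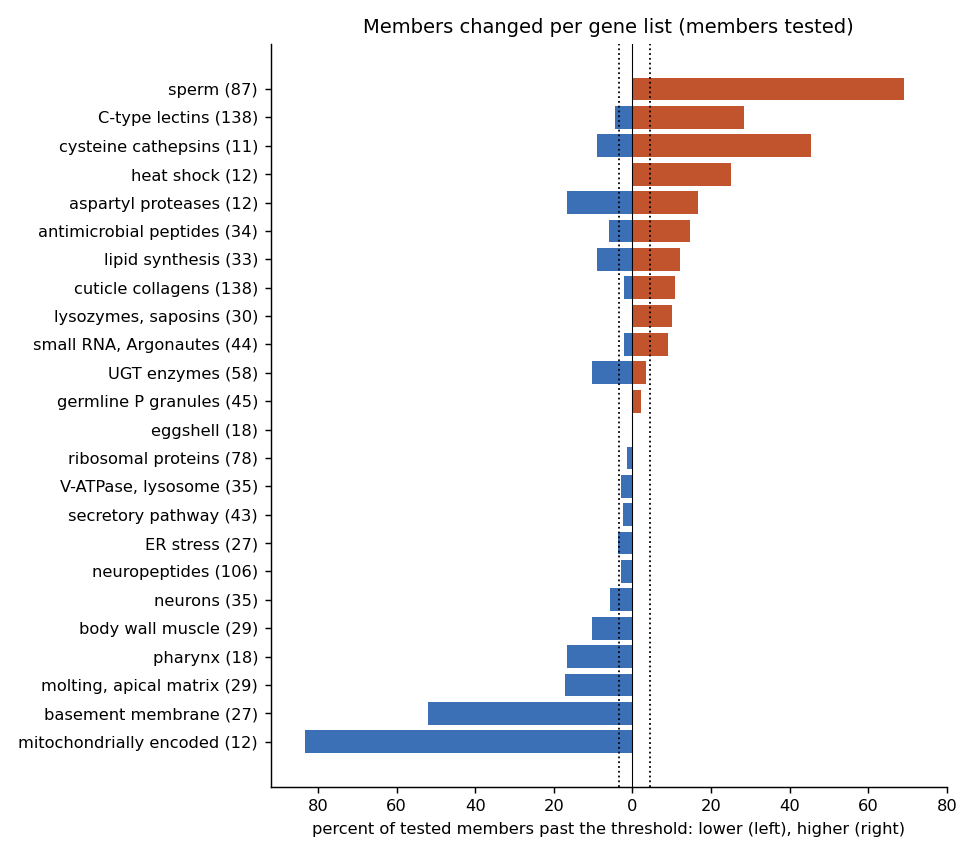
Percent of the tested members of 24 gene lists past the threshold, lower in ACP7 OE to the left and higher to the right, with the number tested in brackets. Dotted lines mark the shares over all 15212 genes, 4.42% higher and 3.35% lower. The sperm list (69% higher), the basement membrane list (51.9% lower) and the mitochondrially encoded list (83.3% lower) reach furthest. Members of the lists share libraries, and several are close copies of each other.

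Basement membrane genes fell together by small amounts. Of 27 tested members, 14 fell (51.9%, against 3.35% of all genes tested) and 0 rose, with a median log2 fold change of -0.33. The count was 10 to 18 with a single library left out, 18 without wild-type library 5, and 6 in the fit of 15 libraries. lam-1, the laminin beta chain gene, stood at 151, 153, 160, 169 and 135 CPM in N2 worms and 120, 116, 106, 123 and 121 CPM in ACP7 OE (log2 fold change -0.39, SE 0.06, adjusted p = 0.00012). lam-2, the laminin gamma chain gene, fell from 105 ± 7.26 to 78.9 ± 5.79 CPM (SD; log2 fold change -0.41, SE 0.06, adjusted p = 0.00011). epi-1, a laminin alpha chain gene, fell from 147 ± 11.5 to 114 ± 10.8 CPM (adjusted p = 0.001). The groups did not overlap in lam-1 and lam-2, and they overlapped in epi-1. Of the type IV collagen genes, let-2 fell from 643 ± 53.6 to 485 ± 82.7 CPM (adjusted p = 0.018, or 0.19 in the fit of 15 libraries). emb-9 fell from 408 ± 41.2 to 314 ± 49.9 CPM (adjusted p = 0.029, or 0.23 in that fit), a call lost without any of 7 libraries. ost-1, the gene of the collagen-binding protein SPARC, fell from 365 ± 39.1 to 284 ± 24.3 CPM (adjusted p = 0.0033, or 0.14 in that fit). emb-9 and ost-1 lie outside the naming rule and were named after their values were seen. In let-2, emb-9 and ost-1 the groups overlapped only between wild-type library 5 and ACP7 OE library 1.

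Transcripts encoded in the mitochondrial genome fell as well. Of the 12 protein-coding ones 10 fell (83.3%, against 3.35% of all genes tested) and 0 rose, at a median log2 fold change of -0.34. With a single library left out 7 to 10 fell. The fold changes of 2 were above 0 without passing, and in 1 gene every ACP7 OE library lay above every wild-type library. They took 1.61%, 1.67%, 1.72%, 1.6% and 1.31% of the counts in wild-type libraries 1 to 5 and 1.17%, 1.26%, 1.19%, 1.27% and 1.15% in ACP7 OE libraries 1 to 5, without overlap. ATP6, a subunit of the ATP synthase, fell from 2331 ± 180 to 1478 ± 76.3 CPM (SD; log2 fold change -0.66, SE 0.06, adjusted p = 4.5e-08). COX3 and COX1, of cytochrome c oxidase, fell by log2 fold changes of -0.59 (SE 0.08, adjusted p = 9.4e-05) and -0.39 (SE 0.08, adjusted p = 0.0035). Of 51 tested nuclear genes of the respiratory complexes 2 fell (3.92%, near the 3.35% of all genes tested) and 0 rose. Leaving out wild-type library 5 gave 6 lower and 1 higher, and neither fall passed when wild-type library 2 or ACP7 OE library 2 or 3 was left out. Ribosomal RNA, which poly(A) selection should remove, took 2.13% to 3.08% of the counts in wild type and 0.936% to 2.56% in ACP7 OE. The part of RNA selection in the mitochondrial difference was not tested.

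Other tissues were less clear. Of 29 body wall muscle genes 3 fell, but 25 without wild-type library 5, and 0 when any of 5 other libraries was left out. Over all genes tested 3.35% fell, against 10.3% of the muscle and 16.7% of the pharynx genes. Of 18 pharynx genes 3 fell, among them eya-1, a transcription factor gene of pharynx development, from 11 ± 1.07 to 7.09 ± 0.863 CPM (SD; log2 fold change -0.64, SE 0.12, adjusted p = 0.0018). There were 8 lower pharynx genes with wild-type library 5 left out, 7 without ACP7 OE library 1 and 1 without wild-type library 4. Of 35 neuron genes 2 fell (5.71%), and of 106 neuropeptide genes 3 fell (2.83%, near the share of all genes) and 0 rose. With wild-type library 5 left out, 5 neuron and 11 neuropeptide genes fell, and with ACP7 OE library 1 left out 8 neuropeptide genes fell. Any of 7 other libraries left out gave 0 to 1 neuron genes, and any of 7 gave 1 neuropeptide gene. Of 29 molting and apical matrix genes 5 fell (17.2%), and 1 to 9 with a single library left out. Cuticle collagens split, with 15 higher (10.9%) and 3 lower (2.17%) of 138 tested, against 4.42% and 3.35% of all genes. The higher ones were weakly expressed, such as dpy-13, from 2.14 ± 0.374 to 5.54 ± 2.35 CPM (adjusted p = 0.00075), and dpy-5, from 1.29 ± 0.163 to 3.41 ± 1.43 CPM (adjusted p = 0.001). With wild-type library 5 left out, 16 collagens were higher and 32 lower, and without wild-type library 1 or ACP7 OE library 4, 9 were higher. In the fit of 15 libraries no collagen passed, and dpy-13 and dpy-5 had adjusted p = 0.26 and 0.29. No muscle or molting gene passed in that fit either. The plot of list medians shows that in muscle, pharynx, neurons and hypodermis wild-type library 5 lay at or below the ACP7 OE libraries.

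**Figure D4:**
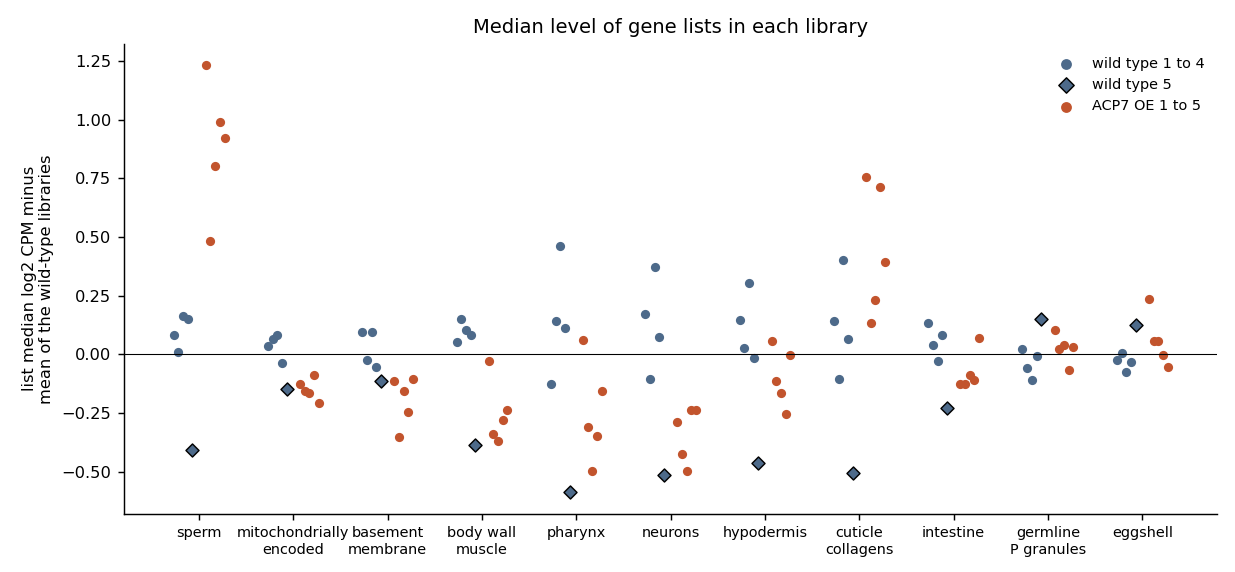
Median log2 CPM of 11 gene lists in each library, minus the mean over the wild-type libraries (vertical), for wild-type libraries 1 to 4 (blue circles), wild-type library 5 (blue diamond) and ACP7 OE libraries 1 to 5 (orange circles). The sperm medians are 1.42 to 1.99 in wild type and 2.31 to 3.06 in ACP7 OE before subtraction, and wild-type library 5 is the lowest wild-type point in all lists but the germline and eggshell ones.

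The strongest falls were of single genes and small neighbourhoods. C38D9.2 (chromosome V, 17567150 to 17571739, plus strand), a gene without a functional name, stood at 140, 144, 149, 145 and 191 CPM in N2 worms and at 9.79, 10, 9.92, 10.7 and 9.28 CPM in ACP7 OE. It fell 15.5-fold (log2 fold change -3.95, SE 0.08, adjusted p = 1.1e-18), and C38D9.13 beside it fell 4.91-fold (adjusted p = 8.4e-07). On chromosome II, F15D4.5 fell from 28.5 ± 2.94 to 6.1 ± 0.742 CPM (adjusted p = 3.4e-12) and its neighbour F15D4.6 from 6.39 ± 0.759 to 2.33 ± 0.479 CPM (adjusted p = 8.4e-06). None of these genes overlapped between the groups, which was a condition of naming by lowest fold change.

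A run of 7 tested neighbours on chromosome V, from 2351676 to 2564645, fell. F56A4.3 stood at 46.2, 46.2, 49.4, 44.6 and 48.7 CPM in N2 worms and 5.43, 8.54, 6.93, 5.43 and 7.59 CPM in ACP7 OE (log2 fold change -2.8, SE 0.11, adjusted p = 9.8e-14). irld-35, which encodes a protein with domains like those of insulin and EGF receptors, fell 5.96-fold from 2.72 ± 0.427 CPM (adjusted p = 8.9e-05). clec-209 and F56A4.2 fell 2.47-fold and 2.4-fold (adjusted p = 5.8e-06 and 6e-06). Both are 891 bases long and had similar levels in every library. Whether they are copies that share reads was not tested. The monocarboxylate transporter-like genes mct-1 and mct-2 (adjusted p = 0.019 and 0.024) and the glutathione transferase gene gst-10 (adjusted p = 0.04) completed the run, and each of these 3 calls was lost without at least 1 library. In the fit of 15 libraries mct-2 and gst-10 did not pass (adjusted p = 0.059 and 0.092). The falls ran from 6.95-fold in F56A4.3 to 1.22-fold in gst-10 at the end of the run.

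R08F11.4 (chromosome V, 3803839 to 3805527), named after its values were seen, divided the wild-type group. It stood at 55.4, 53.9, 53.8, 53.7 and 1.09 CPM in wild-type libraries 1 to 5 and at 1.88, 2.19, 1.45, 2.63 and 2.11 CPM in ACP7 OE (log2 fold change -4.42, SE 0.86, adjusted p = 0.017, or 0.056 without ACP7 OE library 3). Wild-type library 5 thus lay below all ACP7 OE libraries, and the other wild-type libraries far above. Among better expressed genes that rose, sax-2, which encodes a large protein of the Furry family that shapes neurons and was likewise named after its values were seen, went from 73.1 ± 4.47 to 134 ± 10.6 CPM (SD; log2 fold change 0.88, SE 0.06, adjusted p = 1.2e-09).

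Genes of the X chromosome were lower. Of 2175 tested X genes, 151 (6.94%) fell and 17 (0.782%) rose, against 348 (2.67%) and 655 (5.03%) of 13022 autosomal genes. The median log2 fold change was -0.147 on X and between -0.007 and 0.02 on each autosome. Above 32 CPM, 85 of 393 X genes (21.6%) and 142 of 4671 autosomal genes (3.04%) fell. The median log2 CPM of X genes minus that of autosomal genes was -0.715, -0.752, -0.702, -0.723 and -0.79 in wild-type libraries 1 to 5 and -0.873, -0.86, -0.859, -0.847 and -0.838 in ACP7 OE libraries 1 to 5. The groups did not overlap, and wild-type library 5 was nearest to ACP7 OE. Measured gene by gene, as the median difference of X genes from the wild-type mean, wild-type library 5 was at -0.17 and the ACP7 OE libraries were at -0.168 to -0.098, so on this measure it lay with them. The other wild-type libraries were at 0.031 to 0.064. Without wild-type library 5, 375 X genes (17%) and 853 autosomal genes (6.43%) fell, and in the fit of 15 libraries 2.32% and 0.958%. Any other single library left out gave 74 to 173 lower X genes. Across the 19 alternatives the median over X genes was -0.18 to -0.13 and that over autosomal genes 0.01 to 0.02.

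Several results above hold X genes, such as lam-2, let-2 and alg-1, and 0 of the 87 tested sperm genes are on X. Chromosomes IV and II had the highest shares of higher genes, 6.53% and 5.94%, and held 29 and 14 of the 60 sperm genes that rose. Many of the runs of higher neighbours contain sperm genes, such as the run of 7 on chromosome IV from msp-55 to rmd-6 (5055631 to 5069861).

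**Figure D5:**
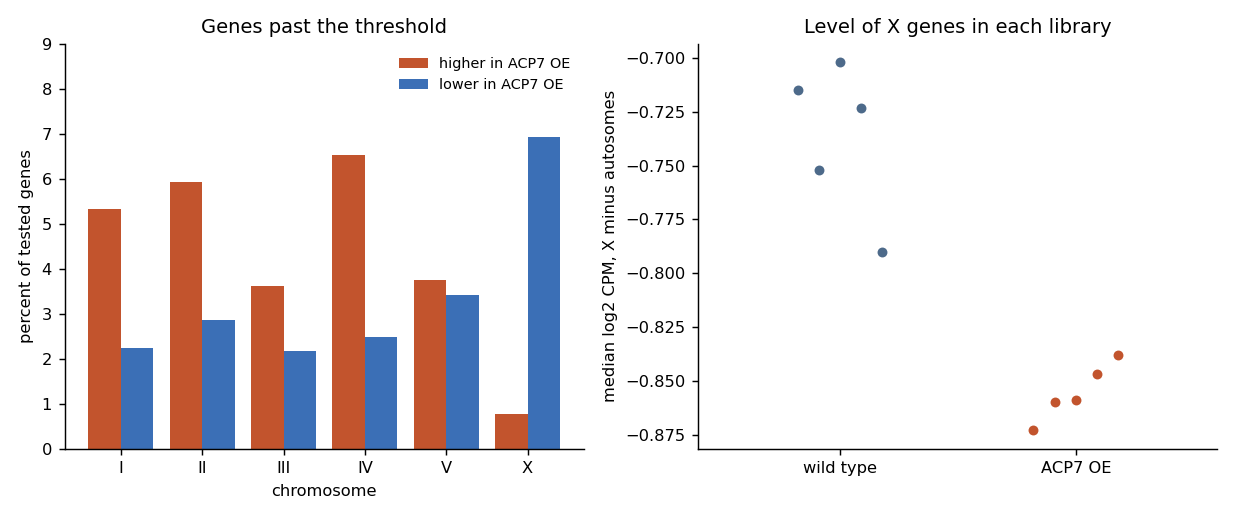
Left, percent of tested genes on each chromosome that were higher (orange) or lower (blue) in ACP7 OE. Right, median log2 CPM of X genes minus that of autosomal genes in each library, on an axis that does not start at 0. On X 6.94% fell and 0.782% rose, and the 5 ACP7 OE libraries lie between -0.873 and -0.838, all below the wild-type libraries.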

How the data were processed

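The authors deposited 1 table of gene counts. Per the file headers it came from featureCounts 2.0.6, after Trim Galore and STAR on WBcel235 per the submitters' processing notes. The deposited counts are whole numbers without normalization. How strand, multiple alignments and mates were handled is not given in the sources used here. In each of the 10 libraries 82.4% to 85.4% of values from 5 to 39 were even, so mates appear to have been counted separately. Symbols came from RefSeq (46925 of 46929 identifiers matched) and Ensembl, coordinates from the table.

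The 5 wild-type and 5 ACP7 OE libraries were fitted alone by edgeR 4.0.16 in R 4.3.3 (robust quasi-likelihood F test), after filterByExpr and with TMM scaling. P-values were adjusted by Benjamini-Hochberg over 15212 genes, and a gene rose or fell at an adjusted p under 0.05. CPM are TMM-scaled. Values are mean ± SD, n = 5. SE is that implied by the test. Named genes are F21A3.11, ges-1, unc-54 and WormScarlet; the 12 highest and 12 lowest fold changes among called genes whose average log2 CPM was 1 or more and whose groups did not overlap; the 8 highest and 8 lowest differences in CPM; the 10 smallest p; up to 4 called members of each of 48 lists, or 2 where none passed; and called neighbours in runs of at least 3. F21A3.11 and unc-54 were kept out of the lists. The members and lists were chosen with earlier results of these data known. Alternatives were limma 3.58.1 (voom), DESeq2 1.42.0, other scaling and filters, halved counts, all 15 libraries, a replicate block and leaving out each library. On simulated data with 5 libraries a group and 14943 genes, 78% of genes changed 1.5-fold and 95% of those changed 2-fold were recovered, with 5 false calls of 178. Changes were placed only in genes whose average log2 CPM was 1 or more, so the shares recovered do not cover weaker genes. No simulated library was made to stand apart, so neither the shares nor the false calls cover that case. No 2 libraries of a group agreed within sampling noise.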

Additional observations from a re-analysis of the deposited data

Results flagged for a closer look

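Of 187 groups of 5 libraries examined, 19 held a library far from the other 4, by its gap to the nearest one as a share of the group's range. For independent groups chance gives about 1 in 20. These groups share libraries, and some genes, such as R08F11.4 and ost-1, were named after their values were seen. The 19 are therefore not a test against that rate. Wild-type library 5 supplied most of them. It was the highest wild-type library in C38D9.2 (191.2 CPM) and F59B2.12 (0.1983 CPM), and the lowest in R08F11.4 (1.09 CPM), alg-1 (80.12 CPM), col-34 (4.758 CPM), lys-4 (35.94 CPM) and ost-1 (295.1 CPM). It also had the lowest sperm-list median (1.42 log2 CPM), the lowest body wall muscle median (7.49 log2 CPM), the fewest genes with at least 1 count (17612), the lowest second principal component (-42.98) and the lowest median difference of X genes from the wild-type mean (-0.17). In R08F11.4 and in the X difference it lay with or beyond the ACP7 OE libraries, while the sperm median and C38D9.2 differed from ACP7 OE more in it than in the other wild-type libraries. Wild-type library 4 stood apart in ins-31 (0.1013 CPM, with the others at 0).

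In ACP7 OE, library 1 was the highest in let-2 (627.7 CPM) and unc-54 (1454 CPM). Library 2 was the lowest in spe-18 (7.448 CPM) and on the first principal component (23.66), library 3 was the lowest in mct-2 (0.9177 CPM), and library 5 had the highest median of the intestine list (5.29 log2 CPM).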

How the results depend on the processing

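Of 229 genes named under the rule or added to it and past the threshold, 84 stayed past it in every alternative that tested them, and none reversed. Against 1182 changed genes (673 higher, 509 lower), the fit of all 15 libraries gave 422 (233 and 189), limma-voom with sample weights 2689 (1228 and 1461), DESeq2 1682 (943 and 739), and a filter of 50 counts in 5 libraries 938 (459 and 479). With 1 library left out the number changed was 780 (without ACP7 OE library 3) to 2314 (without wild-type library 5), higher 518 to 1076 and lower 257 to 1238. Genes changed at least 2-fold numbered 495, 206 in the fit of 15 libraries, 266 with the 50-count filter, and 396 to 531 with a library left out. Relative log expression scaling gave 691 higher and 512 lower. The fit of 15 libraries, which shares its spread, scaling and filter with the ACP7-7A OE group, lost 126 of the 229 calls. The cause of this and of the other shifts was not tested.

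The difference in genes with at least 1 count per library, ACP7 OE minus wild type, was 99.6. It ran from -18.35 (wild-type library 5 left out) to 170.2 (ACP7 OE library 5 left out), and was -7.05 with ACP7 OE library 1 left out. At a minimum of 10 counts the difference was 417.8 (exact permutation p = 0.0397). The change of ges-1, which did not pass (0.02), took the other sign with voom (-0.01). With 1 library left out it was -0.05 (ACP7 OE library 4) to 0.06, and also below 0 for ACP7 OE library 5 (-0.01) and wild-type library 5 (-0.02).

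Same-numbered libraries did not deviate together (correlations -0.049 to 0.041), and 3 of the 5 wild-type libraries matched the library of their own number best. A replicate block gave 890 changed genes (557 higher, 333 lower) and lost 39 of the 229 calls.

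Limits are 1 strain a group, whole worms of unstated age, a wild-type library that stands apart, near-identical copies in the msp and clec families, and few reads for genes under 1 CPM.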
